A study of Mus musculus with 6 samples.

Results

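Monocyte identity genes are 9 genes by which mouse monocytes are commonly recognised: Ly6c2, Ccr2, Csf1r, F13a1, Irf8, Klf4, Cx3cr1, Ms4a6c and Cd14. They were taken by symbol from the 46603 genes of each count file, and all 9 were among the 15069 genes tested. They were followed in unsorted marrow from 8-month-old mice of the C57/Bl6 strain. The genotypes were knockout of nuclear myosin 1 (NM1 KO, 3 mice) and wild type (NM1 WT, 3 mice), which makes a single comparison. Marrow was spun from the femurs and tibiae of 1 mouse per library and no cell type was sorted, so every level below is a level in mixed marrow. Nuclear myosin 1 is the form of the class I myosin gene Myo1c found in the nucleus. The labels name the strain, genotype and age, and no sex, litter or treatment.

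Monocytes arise in the marrow from myeloid progenitors under the growth factor receptor CSF1R and the transcription factors PU.1, IRF8 and KLF4. Classical monocytes carry high Ly6C and the chemokine receptor CCR2, through which they leave the marrow along CCL2. Patrolling monocytes descend from them, carry low Ly6C and high CX3CR1, and survey the vessel wall.

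None of the 9 genes passed the threshold between genotypes, and all 9 had a lower mean in NM1 KO than in NM1 WT. The log2 fold changes, NM1 KO over NM1 WT, ran from -0.84 for Cx3cr1 to -0.05 for Cd14, with a median of -0.34, beside a median of 0 over all tested genes. The test was edgeR's quasi-likelihood test on counts, with p adjusted by Benjamini-Hochberg over the 15069 genes and called under 0.05. That threshold was passed by 0.776% of tested genes in either direction. A log2 fold change below 0 was found in 49.8% of tested genes. At an unadjusted p under 0.05 there were 4 members, all lower in NM1 KO, against 8.32% of tested genes. DESeq2 called 1 member, Ly6c2, and 5.27% of all tested genes. With no low-count filter edgeR called 3, Ly6c2, Ccr2 and Cx3cr1, and 4.67% of 24358 genes. In 1 member, Ly6c2, every NM1 KO value lay below every NM1 WT value, a separation in that direction shared by 9.75% of tested genes. Levels in bulk marrow are relative to the rest of the library. Fewer cells of a type, less RNA per cell and more RNA from other cells therefore cannot be told apart.

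Promoter sequence is shown for 3 members with different patterns across libraries: Ly6c2, whose genotypes did not overlap, F13a1, highest in a single NM1 WT library, and Irf8, nearly flat. Windows that overlap annotated exons were not printed, which left out Ccr2, Cx3cr1 and Ms4a6c. Each sequence is the 250 bases before the most upstream RefSeq start of the gene on GRCm38.p6, read 5′ to 3′ on the gene's own strand, and capitals mark the letters GAGGAA, a core bound by PU.1. The position of Ly6c2 is chr15:75111972-75112221 on the minus strand, that of F13a1 is chr13:37050245-37050494 on the minus strand, and that of Irf8 is chr8:120736108-120736357 on the plus strand.
Ly6c2: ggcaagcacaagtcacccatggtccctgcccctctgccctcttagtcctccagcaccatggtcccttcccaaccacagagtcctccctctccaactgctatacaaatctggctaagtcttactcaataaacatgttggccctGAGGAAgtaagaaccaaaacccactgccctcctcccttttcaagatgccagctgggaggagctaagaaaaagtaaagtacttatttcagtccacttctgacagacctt
F13a1: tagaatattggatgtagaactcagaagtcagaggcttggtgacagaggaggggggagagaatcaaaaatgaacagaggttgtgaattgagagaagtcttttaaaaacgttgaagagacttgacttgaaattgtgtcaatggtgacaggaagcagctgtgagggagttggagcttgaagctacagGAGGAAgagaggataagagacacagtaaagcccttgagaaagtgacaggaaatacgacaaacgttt
Irf8: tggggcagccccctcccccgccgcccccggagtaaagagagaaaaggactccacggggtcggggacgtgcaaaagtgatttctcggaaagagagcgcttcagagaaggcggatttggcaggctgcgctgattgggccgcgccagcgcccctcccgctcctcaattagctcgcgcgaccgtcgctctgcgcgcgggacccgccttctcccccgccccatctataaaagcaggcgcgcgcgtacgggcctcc
The match lay at -108 to -103 in Ly6c2 and at -66 to -61 in F13a1, counted back from the start, both on the strand of the gene. Irf8 held none of the letters searched. Of the members, 7 were matched to the RefSeq table; Csf1r and Cd14 were not searched. Both strands were searched for GAGGAA, which 23.1% of 27025 gene windows of the same length held, for the interferon regulatory factor repeat GAAANNGAA (7.16%), for the C/EBP letters TTGCNNAA (9.55%) and for the KLF box CCACCC (27.6%). In GENCODE M21 the Cx3cr1 window lies in annotated exon over all of its 250 bases, that of Ccr2 over 233 and that of Ms4a6c over 2. Among the 7 members, GAGGAA was found in 2 windows, GAAANNGAA in 2, those of Ccr2 and Ms4a6c, CCACCC in 1, that of Cx3cr1, and TTGCNNAA in 0. The motifs were chosen after the expression values were seen, and the interferon regulatory factor repeat was first searched with a further A at its end, a form that no member's window held; the matches in Ccr2 and Ms4a6c appeared only with the shorter form, so nothing is read from them. A match describes these letters only.

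Ly6c2, the Ly6C surface antigen that classical monocytes carry at a high level (ENSMUSG00000022584, chromosome 15, 75108158 to 75111970, minus strand, GRCm38), was the most abundant member. Its normalised level was 438, 372 and 504 CPM (counts scaled to library size) in NM1 KO 1 to 3 and 688, 663 and 552 CPM in NM1 WT 1 to 3. The highest NM1 KO library, NM1 KO 3, lay below the lowest NM1 WT library, NM1 WT 3, so the groups did not overlap. NM1 KO averaged 438 ± 65.7 CPM and NM1 WT 634 ± 72.2 CPM (SD, n = 3), a log2 fold change of -0.53 (SE 0.15, 95% interval -0.85 to -0.22) that did not pass (adjusted p = 0.114 by edgeR's quasi-likelihood test). With DESeq2 the adjusted p was 0.011 at a log2 fold change of -0.54. Its near copy Ly6c1, better known from endothelium, had 4.92 ± 0.947 and 4.29 ± 0.968 CPM (SD, n = 3). In the annotation 13.9% of the 50-base words of Ly6c2 transcripts also occurred in Ly6c1, so some reads of the pair could be split or dropped in counting.

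Ccr2, the receptor for CCL2 through which classical monocytes leave the marrow (ENSMUSG00000049103, chromosome 9, 124101950 to 124113557, plus strand), had 186, 99.5 and 156 CPM in NM1 KO 1 to 3. In NM1 WT 1 to 3 it had 176, 276 and 194 CPM. NM1 KO 1 lay above NM1 WT 1, and the extremes were NM1 KO 2 and NM1 WT 2, so the groups overlapped. Its log2 fold change was -0.55 (SE 0.22, 95% interval -1.04 to -0.06) and did not pass (edgeR's quasi-likelihood test, adjusted p = 0.243). It was -0.33 without NM1 KO 2 (adjusted p = 0.64) and also without NM1 WT 2 (adjusted p = 0.409).

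Cx3cr1, the fractalkine receptor that is high on patrolling monocytes and also found on natural killer cells and monocyte-dendritic progenitors (ENSMUSG00000052336, chromosome 9, 119901616 to 120069879, minus strand), had the most negative log2 fold change of the members. Its values were 32.8, 16.9 and 34.1 CPM in NM1 KO 1 to 3 and 55.7, 28.5 and 66.4 CPM in NM1 WT 1 to 3. NM1 WT 1 and NM1 WT 3 stood above all other libraries, while NM1 WT 2 lay inside the NM1 KO range. Between genotypes it differed by a log2 fold change of -0.84 (SE 0.31, 95% interval -1.52 to -0.17), with an adjusted p of 0.199 in edgeR's quasi-likelihood test. The spread within each genotype was wide: 27.9 ± 9.6 CPM in NM1 KO against 50.2 ± 19.6 CPM in NM1 WT (SD, n = 3). With no low-count filter the adjusted p was 1.09e-04 by the same test, while the log2 fold change was nearly unchanged at -0.83. That fit called 4.67% of 24358 genes. With the presence of Y-linked reads as a covariate the log2 fold change of Cx3cr1 was -0.52 (adjusted p = 0.383).

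Csf1r, the receptor for CSF1 and IL-34 carried by monocytes, macrophages and osteoclast precursors (ENSMUSG00000024621, chromosome 18, 61100598 to 61132149, plus strand), had 96.6, 95.7 and 112 CPM in NM1 KO 1 to 3. In NM1 WT 1 to 3 it had 127, 159 and 112 CPM. NM1 KO 3 and NM1 WT 3 were level, and the remaining values were lower in NM1 KO. The log2 fold change of -0.39 (SE 0.15, 95% interval -0.71 to -0.06) did not pass (edgeR's quasi-likelihood test, adjusted p = 0.214), and without NM1 WT 2 the value was -0.23. Its annotated exons share 873 bases with Hmgxb3 on the opposite strand, and without a stated strand setting such reads cannot be told apart.

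**Figure D1:**
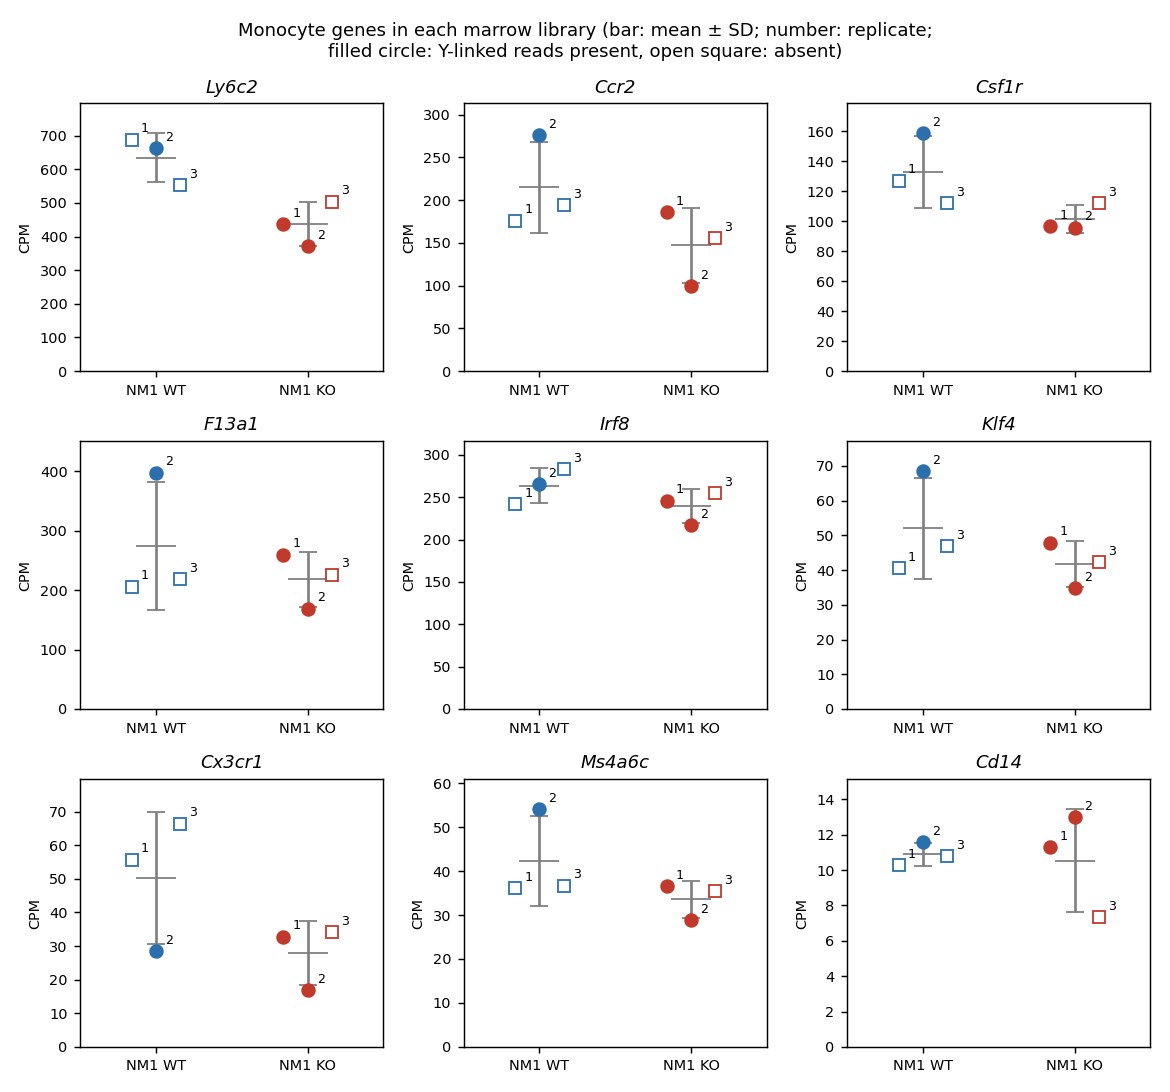
Level of each monocyte gene in CPM (vertical axis, from 0) in the 3 NM1 WT and 3 NM1 KO libraries, with the mean and SD as bars and the replicate number beside each point; circles mark libraries with Y-linked reads and squares those without. Only in the Ly6c2 panel do the NM1 KO points (372 to 504 CPM) all lie below the NM1 WT points (552 to 688 CPM).

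Irf8, a transcription factor that directs progenitors to the monocyte and dendritic cell fates and is also expressed in B cells (ENSMUSG00000041515, chromosome 8, 120736358 to 120756694, plus strand), varied least between libraries. It had 246, 217 and 255 CPM in NM1 KO 1 to 3 and 242, 265 and 283 CPM in NM1 WT 1 to 3. NM1 KO 1 and NM1 KO 3 lay above NM1 WT 1. Its log2 fold change of -0.14 (SE 0.12, adjusted p = 0.632 in edgeR's quasi-likelihood test) had the narrowest 95% interval of the 9, -0.41 to 0.14. The log2 fold change of Irf8 was -0.07 without NM1 KO 2 and -0.09 without NM1 WT 3.

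Klf4, a zinc finger factor needed for monocyte maturation and also expressed in endothelium and other tissues (ENSMUSG00000003032, chromosome 4, 55527143 to 55532466, minus strand), had 47.9, 34.8 and 42.4 CPM in NM1 KO 1 to 3. In NM1 WT 1 to 3 it had 40.6, 68.4 and 47 CPM. NM1 WT 2 stood above the other 5 libraries, among which the genotypes were mixed. For Klf4 it was -0.32 on the log2 fold change scale (SE 0.2, adjusted p = 0.448, edgeR's quasi-likelihood test), with -0.07 without NM1 WT 2 and -0.2 without NM1 KO 2.

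F13a1, the A subunit of coagulation factor XIII, which monocytes, macrophages and megakaryocytes make (ENSMUSG00000039109, chromosome 13, 36867178 to 37050244, minus strand), had 260 CPM in NM1 KO 1, 169 in NM1 KO 2 and 226 in NM1 KO 3. In NM1 WT 1 to 3 it had 206, 398 and 218 CPM. NM1 WT 2 was again far above the rest, and NM1 WT 1 and NM1 WT 3 lay inside the NM1 KO range. For F13a1 the log2 fold change was -0.33 (SE 0.24, 95% interval -0.85 to 0.19), and it was 0.05 (adjusted p = 0.909) when NM1 WT 2 was left out. Leaving out NM1 KO 2 gave -0.17. All 13 megakaryocyte and platelet markers had log2 fold changes above 0 in these libraries, and 10 were called, beside 0.776% of tested genes. Their summed level was 2146 to 4594 CPM in NM1 KO against 1051 to 1375 CPM in NM1 WT, and their part in the F13a1 values was not tested.

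Ms4a6c, a membrane protein of the MS4A family found on monocytes (ENSMUSG00000079419, chromosome 19, 11469366 to 11482192, plus strand), had 36.5, 28.8 and 35.4 CPM in NM1 KO 1 to 3 and 36.1, 54.1 and 36.7 CPM in NM1 WT 1 to 3. NM1 WT 2 was high, while NM1 WT 1 and NM1 WT 3 lay beside NM1 KO 1 and NM1 KO 3. On the log2 fold change scale Ms4a6c stood at -0.34 (SE 0.18), which did not pass (edgeR's quasi-likelihood test, adjusted p = 0.383), and it was -0.11 without NM1 WT 2. Its exons share 1088 bases with BE692007, a transcript on the opposite strand. The neighbouring family member Ms4a6b had 36.2, 26.8 and 26.3 CPM in NM1 KO mice and 27.1, 52.7 and 35.9 CPM in NM1 WT mice, with NM1 WT 2 highest there too. Of 7 genes from the families of members in all, 0 passed. Among them Ms4a4c had a log2 fold change of -0.62, without overlap, and it is counted again below among the other classical monocyte genes.

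Cd14, the co-receptor that hands bacterial lipopolysaccharide to TLR4, carried by monocytes, macrophages and neutrophils (ENSMUSG00000051439, chromosome 18, 36725067 to 36726798, minus strand), was the lowest member. It had 11.3, 13 and 7.32 CPM in NM1 KO 1 to 3 and 10.3, 11.6 and 10.8 CPM in NM1 WT 1 to 3. The 3 NM1 WT libraries lay close together and NM1 KO spread around them, with NM1 KO 2 highest and NM1 KO 3 lowest. Cd14 had a log2 fold change of -0.05 (SE 0.25, 95% interval -0.59 to 0.5), and it was 0.16 without NM1 KO 3 and 0.01 without NM1 WT 2.

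**Figure D2:**
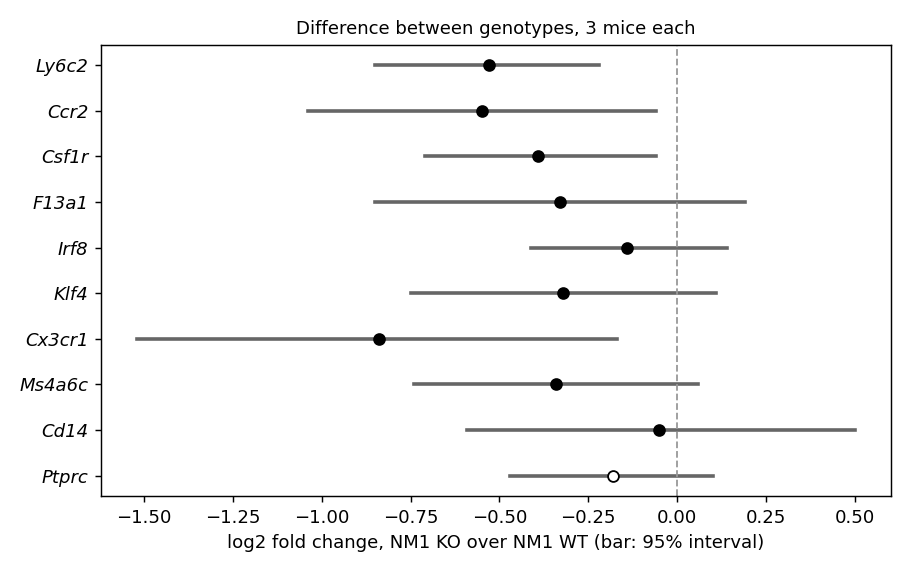
Log2 fold change, NM1 KO over NM1 WT, with its 95% interval (horizontal axis) for the 9 monocyte genes (filled) and for Ptprc, which encodes the pan-leukocyte antigen CD45 (open). All 9 points lie left of 0, and the intervals of Ly6c2, Ccr2, Csf1r and Cx3cr1 do not reach 0 before adjustment for the number of genes tested.

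Levels between genes were compared per kilobase of exon (RPKM). In NM1 WT the order was Ly6c2 at 231 ± 26.3 RPKM, F13a1 at 40.7 ± 16, Irf8 at 37.3 ± 2.87, Ccr2 at 31.9 ± 7.86, Csf1r at 23 ± 4.21, Ms4a6c at 20.6 ± 4.99, Klf4 at 17.1 ± 4.79, Cx3cr1 at 11.1 ± 4.34 and Cd14 at 6.29 ± 0.374 RPKM (SD, n = 3). Ly6c2 stood clear of the rest, while all other neighbours in this order overlapped in their NM1 WT libraries. In NM1 KO F13a1 (32.4 ± 6.84 RPKM) and Irf8 (34 ± 2.83) changed places within their spread, and Cx3cr1 (6.2 ± 2.13) was level with Cd14 (6.08 ± 1.68).

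The members moved together only in part. Of the 9, 8 were lowest in NM1 KO 2, the exception being Cd14, which was highest there. Ccr2, Csf1r, F13a1, Klf4 and Ms4a6c were highest in NM1 WT 2, Ly6c2 in NM1 WT 1, and Irf8 and Cx3cr1 in NM1 WT 3. In NM1 WT 2, F13a1 stood 0.75 above its mean over the 6 libraries on the log2 CPM scale and Ccr2 0.67 above, whereas Cx3cr1 stood 0.32 below (deviation -0.32). In NM1 WT 1 and NM1 WT 3 Cx3cr1 stood at 0.65 and 0.9, F13a1 at -0.2 and -0.12 and Ccr2 at 0.02 and 0.16, so F13a1 lay below its mean there and Ccr2 did not.

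**Figure D3:**
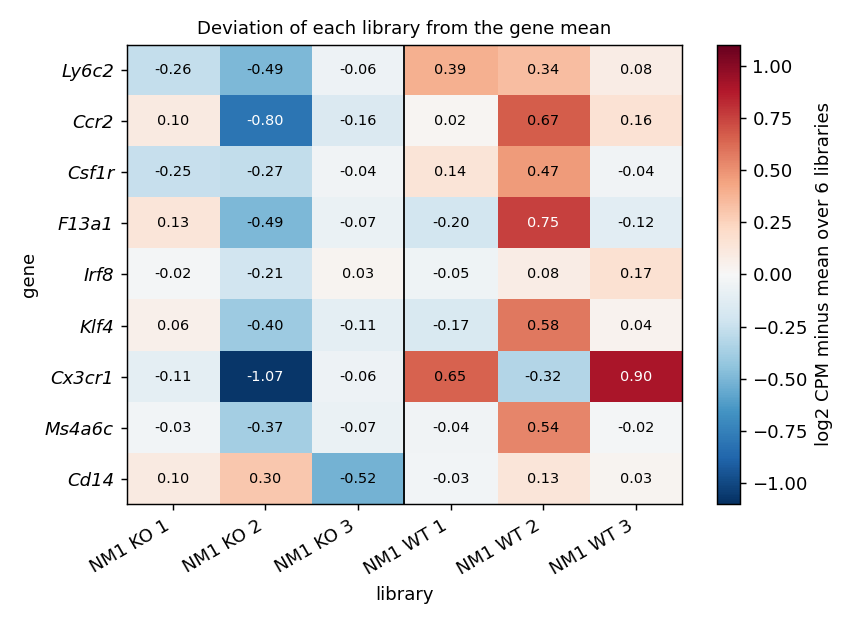
Deviation of log2 CPM from the gene's mean over 6 libraries (colour and printed value) for each monocyte gene (rows) in each library (columns). NM1 KO 2 is blue for 8 of 9 genes, and NM1 WT 2 is red for 8 of 9, with Cx3cr1 (-0.32) the exception.

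The balance of classical to patrolling genes was read within each library as a difference of log2 CPM. Ly6c2 over Cx3cr1 was 3.73, 4.46 and 3.88 in NM1 KO 1 to 3 and 3.62, 4.54 and 3.05 in NM1 WT 1 to 3. The means of 4.02 ± 0.38 and 3.74 ± 0.75 (SD, n = 3) differed by less than the spread. Ccr2 over Cx3cr1 averaged 2.41 ± 0.2 in NM1 KO against 2.16 ± 0.96 in NM1 WT, where NM1 WT 2 (3.27) lay apart from NM1 WT 1 (1.66) and NM1 WT 3 (1.55). Ly6c2 over Ccr2 was 1.61 ± 0.34 and 1.58 ± 0.36. Set against Ptprc in the same library, the difference of mean log2 ratios, NM1 KO minus NM1 WT, was -0.36 for Ly6c2, -0.39 for Ccr2, -0.64 for Cx3cr1 and -0.19 for Csf1r, and between -0.13 and 0.1 for the other 5. Ptprc itself had 350.3 ± 35.8 and 397 ± 38.4 CPM (SD, n = 3), a log2 fold change of -0.18.

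The libraries also differed in Y-linked reads. NM1 KO 1, NM1 KO 2 and NM1 WT 2 held 4566, 3756 and 2723 counts of Ddx3y, Uty, Kdm5d and Eif2s3y, and the other 3 libraries held 0, so the state was unevenly spread over genotypes. Xist, transcribed from an inactive X chromosome, had 14, 6 and 20 counts in the libraries with Y-linked reads. It had 5731, 4141 and 4571 counts in NM1 KO 3, NM1 WT 1 and NM1 WT 3. The states thus match male and female mice, although the labels give no sex. Among libraries with Y-linked reads, 2 NM1 KO and 1 NM1 WT, the difference of mean log2 CPM was -0.93 for F13a1, -1.02 for Ccr2 and -0.71 for Ly6c2. Among those without, 1 NM1 KO and 2 NM1 WT, it was 0.09, -0.25 and -0.29. For Cx3cr1 the order was opposite, with -0.27 and -0.83. With so few mice per state these values carry no test of their own. The difference between states was tested in edgeR's quasi-likelihood fit, where 2 of the 4 combinations of genotype and state hold 1 mouse, 2 residual degrees of freedom remain, and a lone mouse is assumed to vary like the others. It passed for 0 of 9 members and 0.0332% of tested genes (F13a1 adjusted p = 0.318, Csf1r adjusted p = 0.332, Cx3cr1 adjusted p = 0.598), and a miss in so small a design does not show that the states were alike. At an unadjusted p under 0.05 it gave 3 members, Csf1r, F13a1 and Ms4a6c, beside 12.2% of tested genes. NM1 WT 2 is the sole NM1 WT library with Y-linked reads, so what belongs to the state and what to that mouse cannot be told apart.

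Other genes of classical monocytes leaned the same way. Of 15 tested, 0 passed, and all 15 lay below 0 on the log2 scale (median -0.38). In 6 the genotypes did not overlap, a separation in that direction shared by 9.75% of tested genes. Plac8, a small cysteine-rich protein of myeloid cells, had 216, 201 and 267 CPM in NM1 KO mice and 355, 446 and 329 CPM in NM1 WT mice (log2 fold change -0.72, SE 0.15, adjusted p = 0.0516 in edgeR's quasi-likelihood test). S100a4, a calcium-binding protein, had 16.9 ± 2.21 and 26.5 ± 0.74 CPM (SD, n = 3, log2 fold change -0.65), and Cd177, a surface protein better known from neutrophils, 966 ± 157 and 1442 ± 307 CPM. Several genes on this list are shared with neutrophils, and all 11 neutrophil markers also lay below 0 (median -0.47, 0 called), with a summed level of 37325 to 48884 CPM in NM1 KO against 48522 to 66817 CPM in NM1 WT. The part of neutrophils in the monocyte values was not tested.

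Patrolling monocyte genes were mixed. Of 10 tested, 0 passed, 7 were negative and 3 positive, with a median of -0.16. Adgre4, an adhesion receptor of patrolling monocytes, had 14.6, 12 and 11.3 CPM in NM1 KO mice and 19.4, 19 and 16.9 CPM in NM1 WT mice, without overlap (log2 fold change -0.54, adjusted p = 0.181 in edgeR's quasi-likelihood test). Pou2f2, the factor OCT2 shared with B cells, had 86 ± 19.2 and 119.7 ± 24 CPM (SD, n = 3). Cd36, a scavenger receptor that platelets, endothelium and red cell precursors also carry, went the other way, with 158, 179 and 171 CPM in NM1 KO mice and 123, 130 and 123 CPM in NM1 WT mice (log2 fold change 0.44, adjusted p = 0.107).

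Among 14 regulators of myeloid fate, 0 passed, and 7 were negative and 7 positive. Spi1, which encodes PU.1, had 304, 219 and 299 CPM in NM1 KO mice and 417, 455 and 352 CPM in NM1 WT mice, without overlap (log2 fold change -0.57, SE 0.16, adjusted p = 0.113 in edgeR's quasi-likelihood test). Klf2, a factor kept high in quiescent leukocytes, had one of -0.49.

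Of 10 tested ligands and partner receptors, 8 were positive and 2 negative, with a median log2 fold change of 0.99. The threshold, passed by 0.776% of tested genes, was passed by 1. This was Cxcl12, the stromal chemokine that holds monocytes and other cells in the marrow through CXCR4, which rose from 393 ± 64.8 to 1039.6 ± 332 CPM (SD, n = 3; log2 fold change 1.4, SE 0.21, adjusted p = 0.0185 in edgeR's quasi-likelihood test). Its receptor gene Cxcr4 had a log2 fold change of 0.05. Ccl2, the ligand of CCR2, had 17.4, 33.2 and 0.656 CPM in NM1 KO 1 to 3 and 1.02, 9.5 and 0.656 CPM in NM1 WT 1 to 3. It was therefore high in the 3 libraries with Y-linked reads and near 1 CPM or under in the other 3, and the log2 fold change of 2.18 between genotypes (SE 1.05, adjusted p = 0.326) rested on an overlapping spread. Csf1, the main ligand of CSF1R, had 62.8 ± 37.8 and 35.9 ± 10.3 CPM (SD, n = 3). Il34, its other ligand, had a log2 fold change of 1.28 (adjusted p = 0.261 in edgeR's quasi-likelihood test), and Cx3cl1, the ligand of CX3CR1, one of 1.17 (adjusted p = 0.263), both with overlapping genotypes. The GM-CSF receptor genes Csf2rb and Csf2ra stood at -0.61 and -0.5 on the log2 fold change scale, without overlap between genotypes. The ligand gene Ccl12, with at most 18 counts in a library, was left out by the low-count filter.

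Of 10 genes of the lipopolysaccharide receptor and its adaptors, which act with CD14, 0 passed, and 8 were negative with a median of -0.15. Those of smallest p were Tirap, Lbp and Irak4, with log2 fold changes of -0.38, -0.38 and -0.28. Of 8 progenitor genes 0 passed, with a median of -0.25. Prtn3, proteinase 3 of granulocyte-monocyte precursors, had 545 ± 85.9 and 807 ± 202 CPM, Mpo, myeloperoxidase, a log2 fold change of -0.32, and Kit, the stem cell factor receptor, one of 0.28.

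Markers of resident macrophages, which share Csf1r with monocytes, showed the opposite lean. All 13 macrophage markers lay above 0 (median log2 fold change 0.81), although Adgre1 was nearly level at 0.04. Of the 13, 2 were called, both higher, beside 0.776% of tested genes. These were Mrc1, a mannose-binding receptor, and Vcam1, which holds blood cells to stroma and macrophages (both adjusted p = 0.0396, edgeR's quasi-likelihood test). The summed level of the 13 markers was 969 to 1796 CPM in NM1 KO against 634 to 749 CPM in NM1 WT. No marker was at 0 in any library. Of 10 dendritic cell markers 0 passed, with a median of -0.16. Zbtb46, a factor of classical dendritic cells, had log2 fold change 0.67 and Bst2, high in plasmacytoid dendritic cells, -0.53. The summed level of the 10 dendritic cell markers was 289 to 355 CPM in NM1 KO against 281 to 443 CPM in NM1 WT. The part of macrophages and dendritic cells in the values of Csf1r and Irf8 was not tested.

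**Figure D4:**
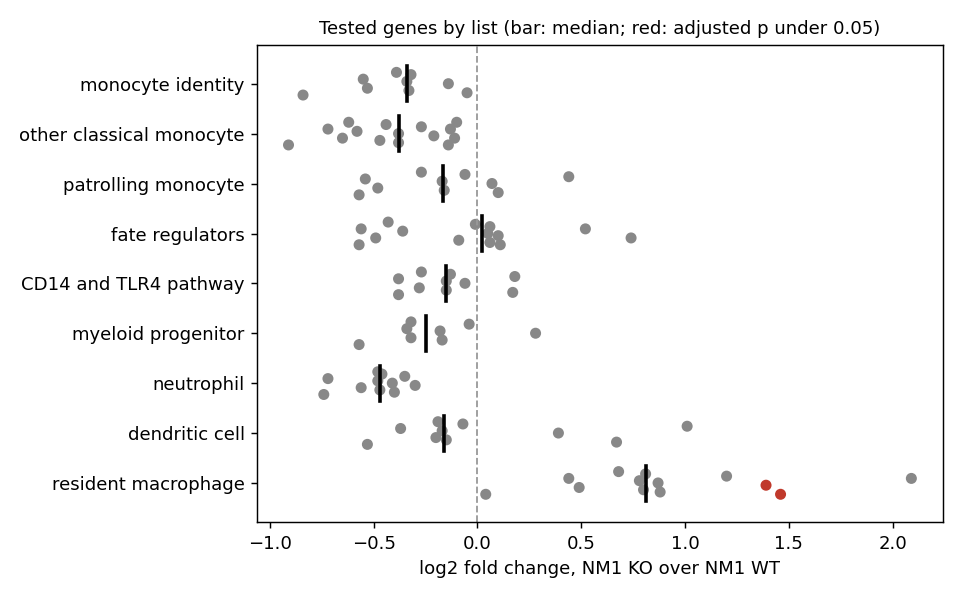
Log2 fold change, NM1 KO over NM1 WT (horizontal axis), of each tested gene in 9 lists, with the median as a bar and called genes in red. The monocyte identity (median -0.34), other classical monocyte (-0.38) and neutrophil (-0.47) lists lie left of 0 throughout, and the resident macrophage list (0.81) right of it.

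Of the remaining marker lists, B cell (8 tested) and T and NK cell (8 tested) genes had 0 called and medians of 0.12 and -0.01. The 7 erythroid markers had 0 called and a median of 0.34. Endothelial markers had 1 of 7 called, higher, and stromal markers 5 of 8, all higher, beside 0.776% of tested genes called in either direction. Of 7 osteoclast markers 4 were tested and 0 passed, with a median of 1.08. None of these lists held a gene with 0 counts in all 6 libraries.

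Among the 5 genes whose levels followed the mean log2 CPM of Ly6c2 and Ccr2 most closely over the 6 libraries, of 10632 genes with a mean of at least 5 CPM, were Sash3, B4galnt1 and Tsc22d4, and the 5 had Pearson's r of 0.989 to 0.998 and Spearman's rho of 0.943 to 1. For Cx3cr1 the closest were Chd2, Arhgef4, Lias, Pip5k1c and Gm37254, with r of 0.992 to 0.995. These were picked as the closest of many genes over few mice and describe likeness in these libraries only.

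Myo1c had 73.8, 59.1 and 59.7 CPM in NM1 KO mice and 89.8, 115 and 102 CPM in NM1 WT mice, and since the counts add up all isoforms they do not check the loss of the nuclear form. Library totals were 21101616 to 22618802 counts in NM1 KO and 15145052 to 17580660 in NM1 WT, so each NM1 KO library was deeper than each NM1 WT library. The value of 1 CPM was 14.7 to 23 counts, and the lowest member, Cd14, still had 152 to 282 counts in every library. NM1 WT 2 stood apart on the second principal component of log2 CPM, at -61.8 against 4.45 to 20.6 for the others. Leaving NM1 WT 2 out brought F13a1, Klf4, Ms4a6c, Csf1r and Ccr2 to log2 fold changes of 0.05, -0.07, -0.11, -0.23 and -0.33. It brought Cx3cr1 to -1.12 (adjusted p = 0.0537 in edgeR's quasi-likelihood test). On the first component NM1 KO 2 was lowest, at -53.6. NM1 KO 1 and NM1 KO 3 lay at -19 and -20.5 there, and the NM1 WT libraries at -4.39 to 53.4. Without NM1 KO 2, Ly6c2 went to -0.43 (adjusted p = 0.432 by the same test) and Cx3cr1 to -0.58 (adjusted p = 0.552).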

How the data were processed

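RNA of whole marrow was sequenced from 6 mice. The deposited files hold raw counts per Ensembl gene. HTSeq, HISAT2 2.0.4, SAMtools 0.1.19, FastQC and Trimmomatic 0.36 and the builds GRCm38 and mm10 are named in the submitters' processing notes, whereas the annotation release, strand and counting settings are not given there. Low counts were nearly all even (in NM1 KO 1, 2417 genes at 2 and 6 at 1), so both mates of a pair appear to have been counted.

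Of 46603 genes, those matching GENCODE M21 received symbols and exon lengths; unmatched genes made up no more than 0.0827% of any library. Genes were kept by filterByExpr, scaled with TMM factors and tested with edgeR 4.0.16 (R 4.3.3), genotype as the only term. SE is the log2 fold change divided by the root of its F statistic, and 95% intervals follow from it. CPM and RPKM were computed here. Tested on simulated counts of this comparison (14688 genes fitted), the fit found 51% of 96 genes with a 2-fold change and 81.5% of 92 with a 4-fold change, with 10 false calls among 134. The largest difference of a member was 1.8-fold (Cx3cr1), so these rates do not cover changes of the members' size. The simulation also set no Y-linked state and no outlying mouse. Counting precision is limited by depth, since reads carry no molecular identifiers.

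The 9 genes were given; the members and lists were chosen with earlier results of these data known. Besides the members and Myo1c, named genes included the 3 of smallest p in each list on monocytes or related family genes, and any called. They also included the 5 closest in pattern to Ly6c2 with Ccr2 and to Cx3cr1. The lists of other cell types gave the 2 of smallest p (named for macrophage and dendritic cells). Ly6c1, Ccl2, Csf1, Il34, Cx3cl1, Cxcr4, Ccl12, Adgre1 and Xist were chosen after their values were seen. So were the promoter motifs and the promoters printed, and the interferon regulatory factor repeat was shortened by its last letter after a first search. Alternatives were other scalings and filters, the likelihood ratio test, limma-voom (limma 3.58.1), DESeq2 1.42.0, a replicate block, a Y-linked covariate, halved counts, removal of haemoglobin, immunoglobulin and mitochondrial genes, and each library left out. Some genes that the naming rule picked are not reported here. The test of the difference between Y-linked states was added after the data were seen.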

Additional observations from a re-analysis of the deposited data

How the results depend on the processing

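Over 18 alternative fits the log2 fold changes of Ly6c2 (-0.65 to -0.43), Ccr2 (-0.76 to -0.33), Csf1r (-0.51 to -0.23), Irf8 (-0.19 to -0.07), Klf4 (-0.47 to -0.07), Cx3cr1 (-1.12 to -0.52) and Ms4a6c (-0.44 to -0.11) stayed negative. With single libraries left out F13a1 ran from -0.5 to 0.05 (without NM1 WT 2) and Cd14 from -0.22 to 0.16 (without NM1 KO 3), with 0.01 without NM1 WT 2; the cause was not tested. The members called went from 0 to 3 with no low-count filter (Ly6c2 -0.52, adjusted p = 0.0114; Ccr2 -0.54, adjusted p = 0.00854; Cx3cr1 -0.83), to 1 with DESeq2 (Ly6c2 -0.54) and to 1 with the replicate block (Cx3cr1 -0.83, adjusted p = 0.0134), and were 0 in the other 15 fits and at a threshold of 0.1. With single libraries left out the adjusted p ran from 0.0812 to 0.432 for Ly6c2 and from 0.139 to 0.64 for Ccr2. Over all genes the count of 117 became 1138 with no filter, 794 with DESeq2, 541 with the likelihood ratio test, 421 with the replicate block, 357 at a threshold of 0.1, 207 without haemoglobin, immunoglobulin and mitochondrial genes, 60 with the Y-linked state and 37 with limma-voom, and lay between 26 and 344 with single libraries left out. In the labels, samples of the same number share only that number. Their deviations from the group means correlated at 0.0636, 0.115 and 0.0609, not all over 0.1, though each library correlated best with its own number. These values do not exclude a pairing. The replicate block gave Ly6c2 -0.54 (adjusted p = 0.0905) and Ccr2 -0.57 (adjusted p = 0.24) and changed no other member's call. Each member had at least 152 counts in every library.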
